A study of Mus musculus with 24 samples.

Results

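The comparison described here set mouse dendritic cells (DCs) treated for 24 h with the compound AZD5582 at 0.05 µM against the same cultures at the start of treatment, with 3 libraries on each side of the 24 libraries in the series. The cells were grown from bone marrow for 16 days with GM-CSF at 20 ng/ml and the growth factor FLT3L at 200 ng/ml (FL cultures), and the series calls these cells cDC1. Libraries were chosen by their titles, which carry the culture names DC91, DC94 and DC95 (cultures 91, 94 and 95 below). Each culture gave 1 library with AZD5582, 1 after 24 h with the same volume of its solvent DMSO, and 1 at the start (t0), and all 9 entered a single fit. The donor mice were C57BL/6JRj wild-type or Cas9-EGFP animals, and which culture came from which is not given. The series calls the 3 libraries of a group biological replicates, and whether the cultures came from separate animals is not given. The fit removes each culture's own level, so p-values weigh a change against the spread that remains among all 9 libraries, those with DMSO included. No sort is described, so each library is a bulk sample in which fewer cells of a type and less RNA per cell cannot be told apart. Libraries at t0 differ from those with AZD5582 in time, solvent and compound together, so the difference between them is called the net change. It shows how far the libraries lay from those at the start, and which genes of cDC1 identity were lower or higher by then.

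Type 1 conventional DCs (cDC1) are the DC lineage that takes up material from dying cells and presents its peptides on MHC class I to CD8 T cells, and they depend on the transcription factors BATF3 and IRF8. When DCs mature they move to lymph nodes with the help of the chemokine receptor CCR7, raise co-stimulatory molecules and cytokines, and wind down the genes of antigen capture. AZD5582 belongs to the SMAC mimetics, which bind the inhibitor of apoptosis proteins (IAPs) whereupon cIAP1 and cIAP2 are degraded, the kinase NIK accumulates and non-canonical NF-kB signalling follows.

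The 9 libraries held 27012555 to 83666279 counts on genes. The DMSO library of culture 91 stood apart from its group. On the first principal component, which held 56.9% of the variance, it lay at 84.3, while the DMSO libraries of cultures 94 and 95 lay at -43.0 and -26.8. The AZD5582 libraries lay at 134.9, 29.4 and 76.2 in cultures 91, 94 and 95, and those at t0 between -86.1 and -84.1. The 50 most abundant genes took 21.7% to 24.0% of counts with AZD5582 and 17.3% to 17.8% at t0, and mitochondrial genes took 1.38% to 2.88% with AZD5582 and 1.84% to 2.29% at t0. Their part in the results was not tested.

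Of 15961 genes tested, 7022 were called in the net change, that is, had an adjusted p under 0.05 in the quasi-likelihood test of edgeR after Benjamini-Hochberg adjustment (44%). With AZD5582, 3184 were higher (19.9%) and 3838 lower (24%), and 1959 and 2515 of these changed at least 2-fold. In 7016 of the 7022 called genes the change had 1 direction in all 3 cultures. The count of calls was 4379 without the AZD5582 library of culture 91, 3432 without that of culture 95 and 4661 without the t0 library of culture 95. Without all 3 libraries of culture 95 edgeR called no gene, with a smallest adjusted p of 0.0513 and 5419 genes at an unadjusted p under 0.05, while DESeq2 called 4060 genes on the same libraries. All 7009 called genes that could still be tested kept their direction without culture 95. They had been called with these same libraries, so a kept direction is not an independent check. Scaling by total counts, without TMM factors, moved the median log2 change of all genes to -0.32, against -0.05 with TMM, and gave 2259 higher and 4990 lower genes.

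The 35 genes listed as cDC1 identity were all detected and tested, and most of them fell. With AZD5582, 23 of 35 were lower than at t0 (65.7%, against 24% of all genes tested) and 5 were higher (14.3%, against 19.9%), and 7 were not called. The median log2 change of the 35 genes was -2.37, against -0.05 for all genes. The 5 higher genes were Batf3, Irf8, Ly75, Gcsam and Htr7. The counts in the list were 18 to 25 lower and 4 to 6 higher under the 17 alternatives that kept at least 1 library of culture 95. Without that culture edgeR called 0 of the 35 genes, and DESeq2 called 23 lower and 3 higher. Values below are CPM (a gene's count relative to the TMM-scaled total of its library), in the order of cultures 91, 94 and 95, and log2 differences carry their standard error (SE).

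Among surface receptors, Xcr1 (ENSMUSG00000060509), the chemokine receptor that marks cDC1, had 1.76, 2.92 and 1.89 CPM with AZD5582, 8.25, 16.4 and 28 CPM with DMSO and 405, 111 and 156 CPM at t0. The 3 groups did not overlap, and the AZD5582 libraries held the lowest values of every culture. Its net change was -6.61 ± 0.77 (SE; adjusted p = 0.00167), a 97.9-fold lower level, with -3.63 ± 0.68 between DMSO and t0 and -2.98 ± 0.66 between AZD5582 and DMSO. Clec9a, the receptor by which cDC1 recognise dead cells, had 41.1, 23.2 and 27.6 CPM with AZD5582, 37.2, 49.4 and 79 with DMSO and 166, 86.8 and 108 at t0. It fell less than Xcr1, by 1.96 on the log2 scale (SE 0.33, adjusted p = 0.00417), and the changes of the 3 cultures were close to each other (-2.01, -1.90 and -1.97). Cadm1, an adhesion molecule of cDC1, had 10.8, 14.3 and 14.2 CPM with AZD5582, 29.3, 35 and 55.1 with DMSO and 154, 96.7 and 104 at t0, a net change of -3.18 ± 0.30 (adjusted p = 0.00108). Its AZD5582 and t0 libraries lay far apart, with every DMSO library between them. Itgae, the integrin chain CD103, had 3.21, 24.9 and 18 CPM with AZD5582, 17.2, 91.5 and 156 with DMSO and 961, 303 and 353 at t0, and changed by -5.67 ± 1.18 (adjusted p = 0.00902; 0.0505 with no filter on low counts). Its integrin partner Itgb7 (-3.16 ± 0.61), the lectin langerin gene Cd207 (-3.30 ± 0.42), the scavenger receptor gene Cd36 (-3.26 ± 0.40), the semaphorin gene Sema4f (-2.65 ± 0.23) and the orphan receptor gene Gpr33 (-2.37 ± 0.63) fell as well. So did Cd24a (-0.84 ± 0.23), a surface glycoprotein, and the Wnt receptor gene Fzd1 (-1.92 ± 0.47). The calls of Gpr33 and Cd24a were lost without any 1 of the 3 AZD5582 libraries, and that of Fzd1 without the AZD5582 library of culture 95, with adjusted p between 0.0636 and 0.114. Without the culture term the calls of Cd24a and Fzd1 were lost too (0.0831 and 0.0548). Leaving out the t0 library of culture 95 also ended the call of Cd24a (adjusted p = 0.0528).

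**Figure D1:**
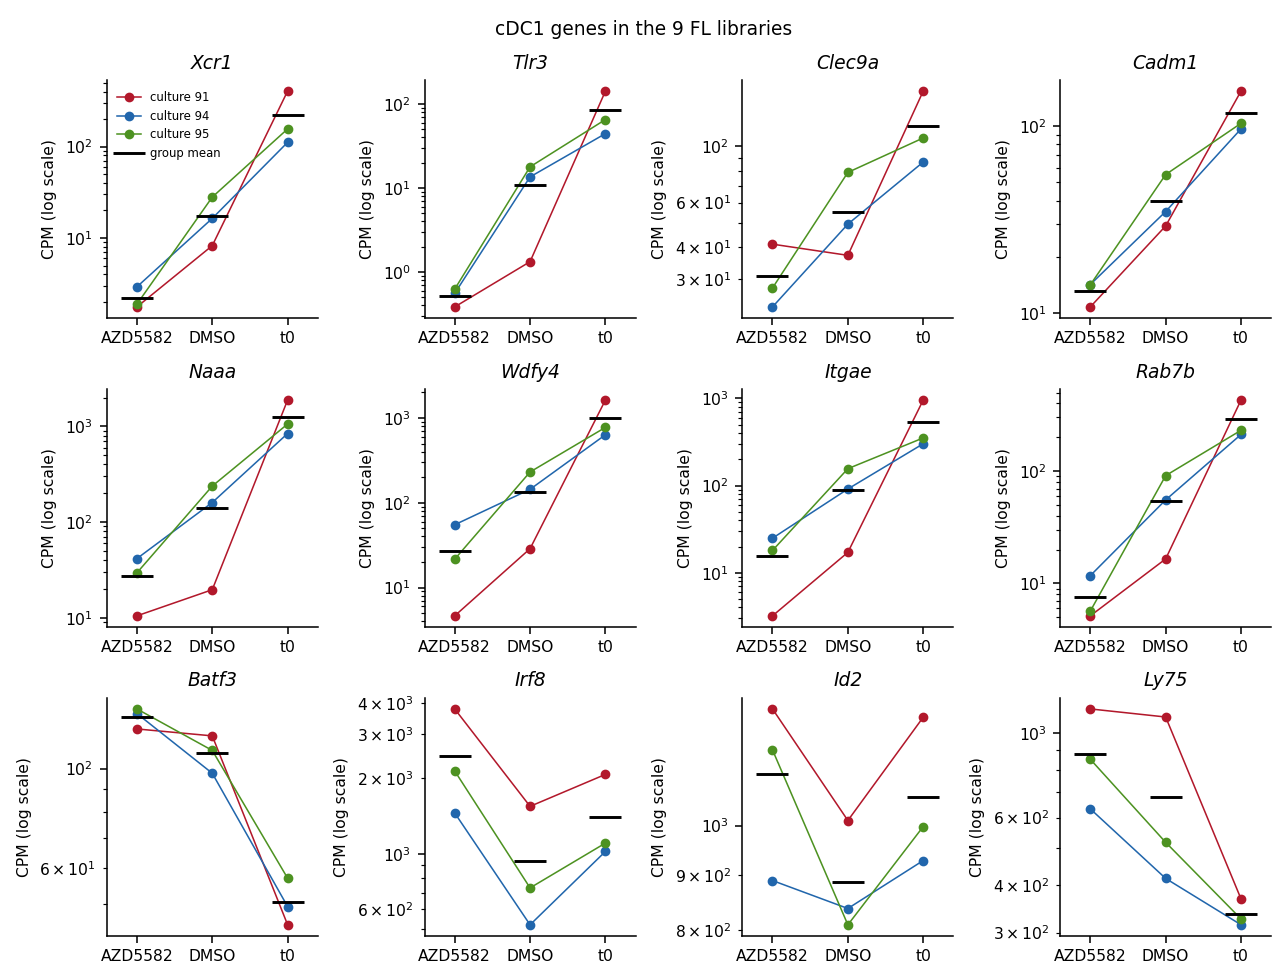
Levels of 12 cDC1 genes in CPM (log axis) in the 9 FL libraries, with AZD5582, DMSO and t0 from left to right; points are libraries, lines join libraries of a culture, and bars are group means (n = 3). Xcr1 lies between 1.76 and 2.92 CPM with AZD5582 and between 111 and 405 CPM at t0, while Batf3 lies higher with AZD5582 (123 to 136 CPM) than at t0 (44.9 to 57 CPM).

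The Toll-like receptors by which cDC1 sense microbes fell. Tlr3, the endosomal receptor for double-stranded RNA, had 0.382, 0.555 and 0.622 CPM with AZD5582, 1.32, 13.5 and 17.8 with DMSO and 143, 44.4 and 65.3 at t0. All 3 AZD5582 libraries were under 1 CPM, and the culture with the highest level at t0 (culture 91) had the lowest with AZD5582. With a net change of -7.43 ± 1.10 (adjusted p = 0.00297), a 173-fold lower level, Tlr3 had the largest fall of the list. Tlr12 (-3.50 ± 0.67) and Tlr11 (-1.95 ± 0.35), which recognise profilin of protozoan parasites, fell by less, with Tlr11 at 7.69, 8.09 and 7.85 CPM with AZD5582 and 57.8, 16.7 and 28 CPM at t0. Tlr11 levels differed little among AZD5582 libraries and widely among t0 libraries.

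Wdfy4, which cDC1 need to cross-present cell-associated antigen, had 4.63, 55 and 21.6 CPM with AZD5582, 28.7, 144 and 231 with DMSO and 1631, 634 and 775 at t0, a net change of -5.92 ± 1.18 (adjusted p = 0.00791). Naaa, a lysosomal amidase, had 10.4, 41.4 and 29.4 CPM with AZD5582, 19.6, 160.0 and 238 with DMSO and 1889, 843 and 1059.7 at t0, a net change of -5.96 ± 1.00 (adjusted p = 0.0045). In both, the DMSO library of culture 91 lay far below those of the other two cultures. Rab7b, a small GTPase of endosomal traffic, had 5.15, 11.7 and 5.67 CPM with AZD5582, 16.5, 55.4 and 91.2 with DMSO and 429, 212 and 231 at t0 (-5.40 ± 0.75, adjusted p = 0.00255). Septin3, a cytoskeletal GTPase gene, had 4.62, 11.9 and 6.63 CPM with AZD5582, 7.52, 64.3 and 104 with DMSO and 1026, 460.5 and 529 at t0 (-6.67 ± 1.04, adjusted p = 0.00345). The AZD5582 and t0 groups of both genes did not overlap, and DMSO levels lay between AZD5582 and t0 levels in every culture. Across cultures, the AZD5582 and DMSO groups of Septin3 overlapped. The lysosomal thioesterase gene Ppt1 (-3.80 ± 0.63), the interferon-inducible gene Ifi205 (-4.47 ± 0.65), Snx22 (-1.70 ± 0.43), of the sorting nexin family, and Plekha5 (-0.59 ± 0.13), which encodes a lipid-binding domain protein, also fell. The calls of Snx22 and Plekha5 were lost without the AZD5582 library of culture 91 (adjusted p = 0.0859 and 0.0682) or of culture 95 (0.0774 and 0.0565), and that of Plekha5 without the culture term (0.110).

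Of 5 transcription factor genes in the list, 2 rose, 1 fell and 2 were not called. Batf3, without which cDC1 do not develop, had 123, 133 and 136 CPM with AZD5582, 118, 97.6 and 109.8 with DMSO and 44.9, 49.3 and 57 at t0. Every AZD5582 and DMSO library lay above every t0 library, and the net change was 1.37 ± 0.13 (adjusted p = 0.00119), with 1.11 ± 0.13 between DMSO and t0. Irf8, the partner of BATF3, had 3778, 1455 and 2139 CPM with AZD5582, 1546, 521 and 731 with DMSO and 2072, 1022 and 1103 at t0. Within each culture it was lowest with DMSO and highest with AZD5582, although the AZD5582 and t0 groups overlapped, with culture 91 high throughout. The difference of Irf8 was -0.67 ± 0.18 between DMSO and t0 (adjusted p = 0.0396), 1.44 ± 0.18 between AZD5582 and DMSO (adjusted p = 0.0089) and 0.77 ± 0.18 in the net change (adjusted p = 0.0113). The net call of Irf8 was lost without the culture term (adjusted p = 0.245), without the AZD5582 library of culture 95 (0.0667) and without the t0 library of culture 95 (0.0759). Id2, an inhibitor of DNA-binding factors that cDC1 require, had 1282, 889 and 1175 CPM with AZD5582 and 1260.0, 928 and 998 CPM at t0 and was not called (0.07 ± 0.16, adjusted p = 0.743; -0.21 with total-count scaling). Nfil3, a factor upstream in the lineage, had 206, 110.0 and 117 CPM with AZD5582 and 78.3, 97.4 and 83 at t0 (0.62 ± 0.33, adjusted p = 0.161). It was highest in the 2 libraries of culture 91 taken after 24 h, and it was called higher without the DMSO library of culture 91 (adjusted p = 0.0493) or the t0 library of culture 94 (0.0488). Mycl, a MYC family member that the mature form of the lineage expresses, fell, with 6.62, 8.85 and 6.27 CPM with AZD5582, 14.1, 31.7 and 42.5 with DMSO and 82.4, 55.6 and 60.2 at t0 (-3.22 ± 0.41, adjusted p = 0.0021).

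Beside Batf3 and Irf8, 3 more genes of the list rose. Ly75, the endocytic receptor DEC-205, had 1155, 632 and 853 CPM with AZD5582, 1099.9, 416 and 517 with DMSO and 367, 314 and 326 at t0 (1.33 ± 0.24, adjusted p = 0.00504). Gcsam, a signalling adaptor gene, had 77.3, 18.6 and 49.8 CPM with AZD5582, 21.5, 3.97 and 12.5 with DMSO and 14, 4.18 and 9.79 at t0 (2.32 ± 0.16, adjusted p = 0.000629). The serotonin receptor gene Htr7 had 248, 157 and 226 CPM with AZD5582, 194, 92.8 and 119.9 with DMSO and 117, 97.5 and 113 at t0 (0.92 ± 0.18, adjusted p = 0.00646). For Gcsam and Htr7 the difference lay mostly between AZD5582 and DMSO (2.01 ± 0.16 and 0.66 ± 0.18), while Ly75 in culture 91 was nearly as high with DMSO as with AZD5582. Of the 7 genes not called, the inhibitory receptor gene Btla (-1.74 ± 0.62, adjusted p = 0.0574) and the adaptor gene Clnk (-3.44 ± 1.28, adjusted p = 0.0642) missed the threshold narrowly. Their AZD5582 and t0 groups did not overlap. Without the DMSO library of culture 91, Btla passed it (adjusted p = 0.00062), and without the t0 library of culture 91 or 94 so did Clnk (0.0271 and 0.0389). Cd8a (-0.67 ± 0.33), low in every library, the peptide transporter gene Tap1 (0.20 ± 0.17; -0.07 with total-count scaling) and Fndc7 (-0.21 ± 0.47) had groups that overlapped. Groups of AZD5582 and t0 libraries did not overlap for 29 of the 35 genes (82.9%), against 55.8% of all genes tested.

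**Figure D2:**
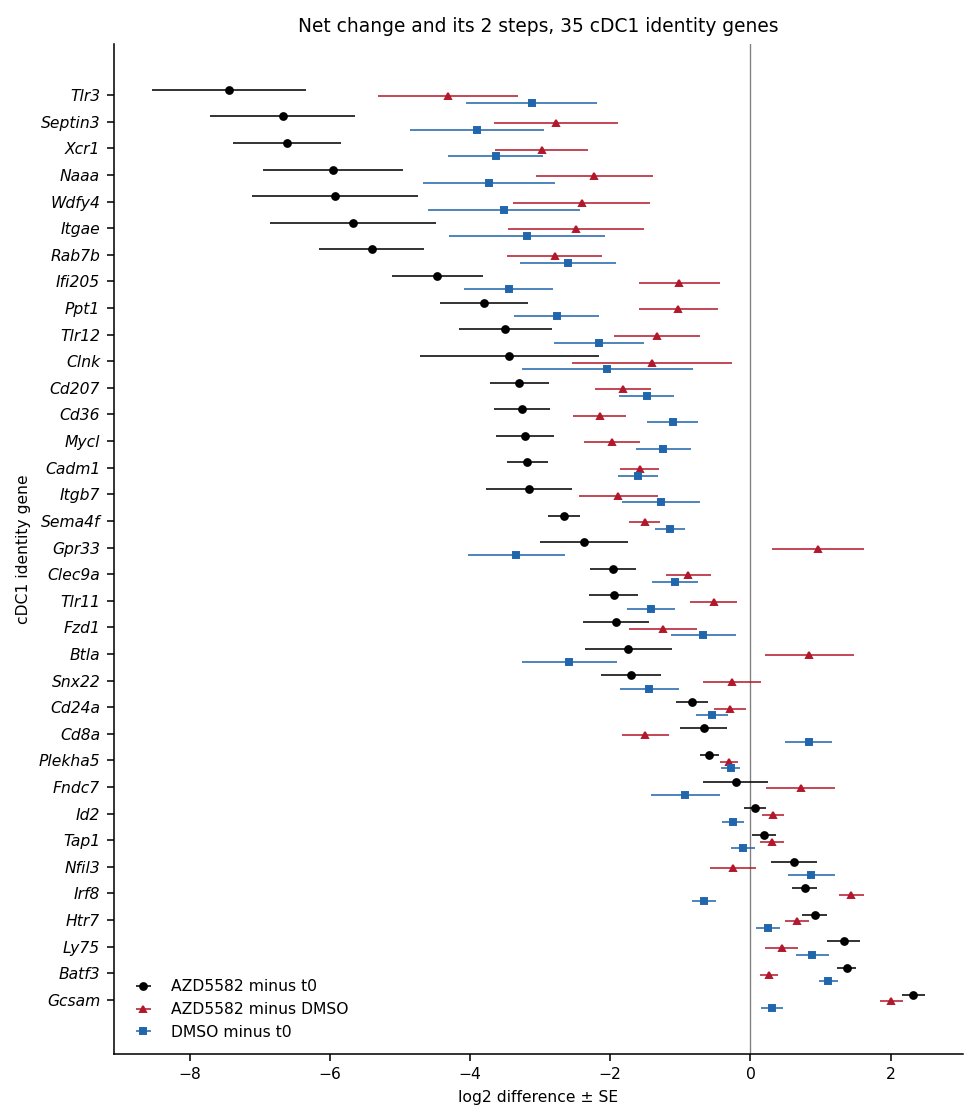
Log2 differences with their SE for the 35 cDC1 identity genes, ordered by the net change (AZD5582 minus t0, circles), beside AZD5582 minus DMSO (triangles) and DMSO minus t0 (squares), from 1 fit of 9 libraries. The net change runs from -7.43 for Tlr3 to 2.32 for Gcsam, and most genes at the low end have both differences below 0.

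The 3 cultures did not fall to the same extent. The median log2 change of the 35 genes was -3.09 in culture 91, -1.77 in culture 94 and -1.97 in culture 95, and 22 of the 23 lower genes had their largest fall in culture 91. This was not particular to cDC1 genes. Culture 91 also held the largest change of 38 of 39 lower cell cycle genes and 31 of 36 higher genes of mature migratory DCs. It did so for only 6 of 15 lower cholesterol synthesis genes, and the share over all called genes was not counted. In culture 91 t0 levels of Xcr1, Itgae, Wdfy4 and Tlr3 were the highest of the 3 and AZD5582 levels the lowest. The levels of all 35 genes summed to 7897, 4671 and 5910 CPM with AZD5582 in cultures 91, 94 and 95, 5644, 4047 and 4975 CPM with DMSO, and 14366, 7476 and 8533 CPM at t0. The sum with AZD5582 was below that at t0 and above that with DMSO in every culture. Irf8 alone gave 3778, 1455 and 2139 CPM of the sums with AZD5582 and 1546, 521 and 731 CPM of those with DMSO. Id2 and Ly75, which were not lower either, are also a large part of it. The sums therefore follow a few abundant genes and do not describe the list as a whole.

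Between DMSO and t0, 13 of the 35 genes were lower and 2 higher (of all genes, 10.2% and 9.23%), and between AZD5582 and DMSO 8 were lower and 2 higher (of all genes, 3.19% and 3.69%). The list's median was -1.28 between DMSO and t0 and -1.03 between AZD5582 and DMSO. These differences share libraries with the net change and are given beside it only. Their counts over all genes were unstable. Against t0, 3107 genes were called with DMSO (19.5%), but edgeR called none when only these 2 groups were fitted, with 4391 genes at an unadjusted p under 0.05, or without the t0 library of culture 95, with 4647 (DESeq2 on all 9 libraries called 4814). Without a DMSO library the count was 1224, 88 and 637 for cultures 91, 94 and 95, and without an AZD5582 library 1744, 1722 and 893. Against DMSO, 1098 genes were called with AZD5582 (6.88%). Without the DMSO library of culture 91, 94 or 95 they numbered 2007, 157 and 13, without the AZD5582 library of these cultures 164, 543 and 17, and without the t0 library of culture 91 or 95 they numbered 3464 and 331.

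The GM-CSF cultures of the series, grown without FLT3L for 8 days, give a level to set beside the remaining transcripts, and beside the label of the cells. These libraries differ from the FL libraries in cytokine, day and culture, and the values were scaled over all 24 libraries. At t0, Xcr1 was at 105 to 383 CPM in FL cultures and 0.105 to 0.165 CPM in GM-CSF cultures, and Clec9a at 82.1 to 157 and 0.725 to 0.927 CPM, so both defining receptors of cDC1 were present where the label places them. Libraries at t0 also lack the 24 h, the solvent and the compound of the AZD5582 libraries. Of the 23 lower genes, 10 stayed above the range of the 3 GM-CSF libraries at their t0, 12 lay below it and 1 overlapped it. Among those above were Xcr1 (1.67 to 2.76 CPM in FL cultures with AZD5582 and 0.105 to 0.165 CPM in GM-CSF cultures at t0), Clec9a (22 to 38.9 and 0.725 to 0.927 CPM) and Cadm1 (10.3 to 13.5 and 0.527 to 0.853 CPM). Those below included Tlr3 (0.362 to 0.588 CPM in FL cultures with AZD5582 and 9.81 to 13.6 CPM in GM-CSF cultures at t0), Naaa (9.88 to 39.2 and 757 to 999 CPM), Wdfy4 (4.38 to 52 and 312 to 427 CPM) and Itgae (3.03 to 23.6 and 26.8 to 47.7 CPM). In GM-CSF cultures after 24 h with AZD5582 at 0.1 µM, these genes were lower than at their t0 too. There, Tlr3 was at 5.33 to 6.85 CPM, Naaa at 96.7 to 110 CPM, Wdfy4 at 26.4 to 34.2 CPM and Itgae at 0.14 to 0.42 CPM. Against these libraries, FL cultures with AZD5582 were lower for Tlr3 and Naaa, overlapped for Wdfy4 and were higher for Itgae.

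The falls of cDC1 genes came with a broad rise of genes that mark mature, migratory DCs. Of 40 such genes 36 were higher with AZD5582 (90%, against 19.9% of all genes), and 1 was lower, with a median log2 change of 2.19. Between DMSO and t0, 26 of the 40 were higher (65%, against 9.23% of all genes). Between AZD5582 and DMSO, 8 were higher (20%, against 3.69%). Their summed level was 63992 to 99571 CPM with AZD5582 and 12684 to 14487 CPM at t0. The chemokine receptor gene Ccr7 had 8291, 3048 and 4565 CPM with AZD5582, 7519, 1537 and 2170.2 with DMSO and 1149.5, 1146 and 1178 at t0 (1.98 ± 0.41, adjusted p = 0.0085). Fscn1, the actin-bundling protein fascin of DC dendrites, had 14717, 7849 and 10971 CPM with AZD5582, 7516, 2929.8 and 3649.9 with DMSO and 1274, 1550.5 and 1831 at t0 (2.76 ± 0.35, adjusted p = 0.00187). The DMSO library of culture 91 was above the AZD5582 libraries of cultures 94 and 95 for Ccr7 and close to that of culture 94 for Fscn1, while t0 libraries were alike. Ccl22, a chemokine that attracts regulatory and helper T cells, had 23069, 25566 and 34682 CPM with AZD5582, 7856, 4256 and 5189.9 with DMSO and 2407, 2298 and 2832 at t0 (3.46 ± 0.29, adjusted p = 0.000986). Its AZD5582 libraries were all above its DMSO libraries. Apol7c, an apolipoprotein L family gene that mature DCs express, changed by 5.29 ± 0.66 (adjusted p = 0.00194), and its near-identical relatives make its count uncertain. The lower gene was Aldh1a2, a retinoic acid synthesising enzyme (-1.85 ± 0.42, adjusted p = 0.012), whose call was lost without the AZD5582 library of culture 91 (0.0562) and without the culture term (0.0621).

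**Figure D3:**
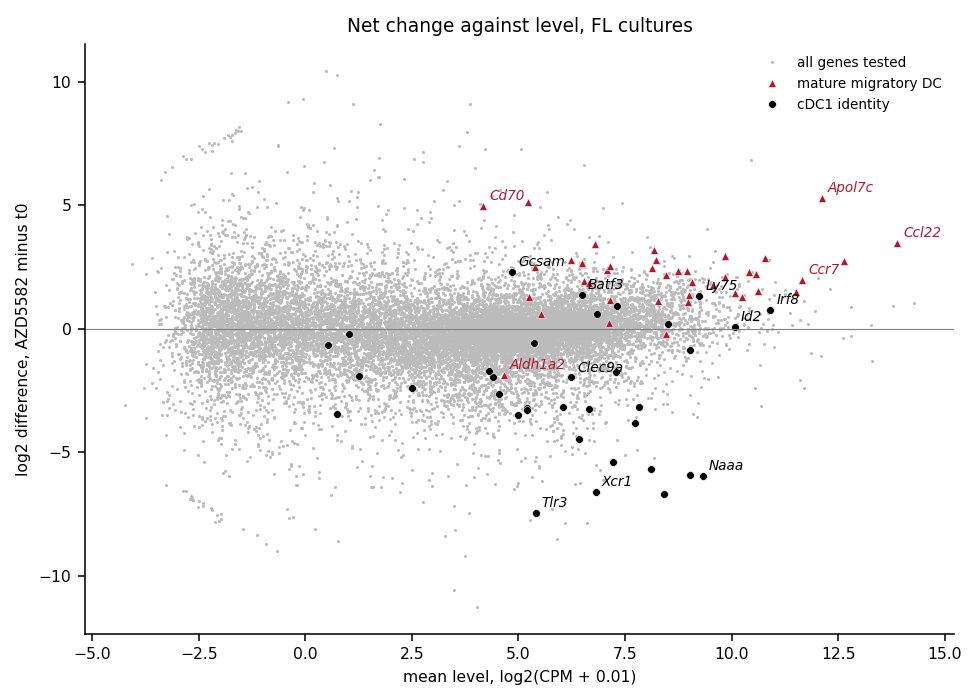
Net log2 difference (AZD5582 minus t0) against mean level on the log2(CPM + 0.01) scale for all 15961 genes tested (grey), with the 35 cDC1 identity genes as circles and the 40 mature migratory DC genes as triangles. Migratory genes lie mostly above 0 and cDC1 genes mostly below, with Batf3, Irf8, Ly75, Htr7 and Gcsam above.

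Ligands and receptors by which DCs act on T cells were among the genes that rose. Cd40, the receptor through which helper T cells license DCs, had 737, 356 and 487 CPM with AZD5582, 241, 72.5 and 90.8 with DMSO and 50.8, 48.2 and 60.4 at t0 (3.19 ± 0.34, adjusted p = 0.0013). The CD27 ligand gene Cd70 had 45.1, 21.6 and 38.5 CPM with AZD5582, 5.12, 1.9 and 2.41 with DMSO and 0.696, 1.16 and 1.23 at t0 (4.98 ± 0.45, adjusted p = 0.00106). Every AZD5582 library of these genes was above every library of the other two groups. Tnfsf9, the ligand of 4-1BB, had 84.7, 54 and 76.1 CPM with AZD5582, 12.4, 6.75 and 9.89 with DMSO and 13, 12.4 and 12 at t0 (2.49 ± 0.18, adjusted p = 0.000638), so that its DMSO libraries were at or under t0 levels. Cd80 (1.12 ± 0.16) and Cd86 (1.07 ± 0.16), the ligands of CD28, rose. Fas (1.30 ± 0.13), a death receptor gene, rose too. Of 34 tested genes of the TNF superfamily and its receptors, 12 rose (35.3%, against 19.9% of all genes) and 7 fell (20.6%, against 24%), with a median of 0.03. The falls, at a share near that of all genes, included those of Tnfsf8, the CD30 ligand (-5.10 ± 0.67), and Tnfrsf1a, a TNF receptor (-1.21 ± 0.20). Without the AZD5582 library of culture 95 the counts were 7 and 2, and without that of culture 91 only 3 fell.

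Of 20 tested cytokine genes, 8 rose (40%, against 19.9% of all genes) and 3 fell (15%, against 24%). Il12b, the p40 chain of IL-12 and IL-23, had 4242, 294 and 694 CPM with AZD5582, 1919.9, 107 and 216 with DMSO and 165, 93.6 and 76.8 at t0 (2.96 ± 0.63, adjusted p = 0.00979). Culture 91 held by far the highest levels with AZD5582 and with DMSO. Ebi3, a chain of IL-27, had 407, 312 and 375 CPM with AZD5582, 75, 69.1 and 75.8 with DMSO and 38.2, 40.8 and 47 at t0 (3.11 ± 0.15, adjusted p = 0.000362), with little spread in any group. Il15 (2.79 ± 0.28), a survival factor for CD8 T cells and NK cells, Il1b (4.89 ± 0.50) and the IL-1 antagonist gene Il1rn (2.71 ± 0.30) rose, whereas Tgfb1 (-1.55 ± 0.30) and Il18 (-3.40 ± 0.67) fell. Of 28 chemokine and chemokine receptor genes, 9 rose and 9 fell (32.1% each way, against 19.9% and 24% of all genes), with 5 falls without the AZD5582 library of culture 95. Cxcl1, a neutrophil attractant, had 14.1, 10.5 and 15.8 CPM with AZD5582, 1.08, 0.95 and 1.13 with DMSO and 0.129, 0.131 and 0.102 at t0 (6.73 ± 0.30, adjusted p = 0.000319), and Gpr183, a receptor for oxysterols, rose by 1.44 ± 0.18.

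Genes of the NF-kB pathway, on which SMAC mimetics act, rose for 19 of 26 members (73.1%, against 19.9% of all genes), and 1 fell, with a median of 1.34. Between DMSO and t0, 10 were higher (38.5%, against 9.23% of all genes). Between AZD5582 and DMSO, 4 were higher (15.4%, against 3.69%) and 1 lower (3.85%, against 3.19%). Promoters of 3 of those that rose, 250 bases before the annotated start (RefSeq, GRCm38.p6), are shown because each holds a form of the NF-kB motif. This form, GGG followed by any 2 bases and TTTCC, stands in capitals, on one strand or the other. Other forms of the motif were neither searched nor marked.
Nfkbia, chr12:55492648-55492897, minus strand: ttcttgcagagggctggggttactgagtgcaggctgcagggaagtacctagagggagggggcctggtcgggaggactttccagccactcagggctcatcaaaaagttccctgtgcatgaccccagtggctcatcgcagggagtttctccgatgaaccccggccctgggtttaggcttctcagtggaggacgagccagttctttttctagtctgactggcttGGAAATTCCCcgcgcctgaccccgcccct
Tnfaip3, chr10:19015411-19015660, minus strand: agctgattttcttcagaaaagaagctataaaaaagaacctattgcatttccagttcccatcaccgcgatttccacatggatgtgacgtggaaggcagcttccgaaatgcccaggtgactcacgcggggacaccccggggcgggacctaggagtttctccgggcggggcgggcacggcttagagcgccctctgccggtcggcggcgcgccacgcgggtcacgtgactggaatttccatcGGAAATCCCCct
Nfkb2, chr19:46304487-46304736, plus strand: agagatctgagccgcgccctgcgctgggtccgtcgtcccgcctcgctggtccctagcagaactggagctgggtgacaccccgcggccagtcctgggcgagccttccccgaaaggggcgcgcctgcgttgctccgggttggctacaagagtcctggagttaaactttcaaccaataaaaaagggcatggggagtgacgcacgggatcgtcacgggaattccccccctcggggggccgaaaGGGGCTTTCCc
The motif starts 29, 12 and 11 bases before the start of these genes. Promoters of 22 of the 26 NF-kB genes could be matched, and 7 held this form of the motif (31.8%), against 447 of 27025 genes (1.65%). It stood in 1 of the 29 cDC1 identity genes that could be matched (3.45%), Tlr3. The AP-1 motif TGANTCA was present for 5 of the 22 NF-kB genes (22.7%) and 1 of the 29 cDC1 genes (3.45%), against 7.82% of all genes. The interferon motif, GAAA followed by any 2 bases and GAAA, was present for 0 of the 22 and 2 of the 29 (6.90%), against 3.46%. Both strands were searched, and a match describes letters only.

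The 3 genes whose promoters are shown encode inhibitors and a subunit of the pathway. Nfkbia, the inhibitor IkBa and itself an NF-kB target, had 1491, 1096 and 1387 CPM with AZD5582, 589.9, 347 and 349.6 with DMSO and 179.6, 208 and 216 at t0 (2.69 ± 0.24, adjusted p = 0.000993). Tnfaip3, the ubiquitin-editing inhibitor A20, had 871, 399.9 and 546 CPM with AZD5582, 358, 116 and 151 with DMSO and 85.5, 78 and 84 at t0 (2.76 ± 0.29, adjusted p = 0.00127). Nfkb2, the p100 precursor that the non-canonical pathway processes, had 1792, 666 and 978 CPM with AZD5582, 1089, 281 and 404 with DMSO and 252, 236 and 265 at t0 (2.00 ± 0.34, adjusted p = 0.00442). In each of the 3 genes, every culture was highest with AZD5582 and lowest at t0. Relb (1.77 ± 0.37), the partner of processed p100, Traf1 (1.73 ± 0.34), Nfkbiz (2.31 ± 0.29) and the kinase gene Ikbkb (1.43 ± 0.19) rose, and Tnip3, an A20-binding inhibitor, fell (-1.24 ± 0.22). The kinase NIK gene Map3k14 had 399, 204 and 221 CPM with AZD5582, 1041, 304 and 377 with DMSO and 265, 278 and 265 at t0, and its net change was not called (-0.10 ± 0.32, adjusted p = 0.815). Its sign turned without the culture term (0.03) and without the t0 library of culture 94 (0.20) or 95 (0.03).

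Of the 3 IAP genes whose proteins such compounds bind, 2 rose and 1 was not called. Birc2, which encodes cIAP1, had 453, 384 and 391 CPM with AZD5582, 635, 262 and 311 with DMSO and 127, 161 and 145 at t0 (1.48 ± 0.29, adjusted p = 0.00705). Birc3, which encodes cIAP2, had 553, 367 and 459 CPM with AZD5582, 561, 234 and 274 with DMSO and 161, 155 and 153 at t0 (1.52 ± 0.24, adjusted p = 0.00334). Both stood above t0 with DMSO as well, and differed by 0.09 ± 0.29 and 0.43 ± 0.24 between AZD5582 and DMSO, neither of them called. Xiap was not called (-0.17 ± 0.16, adjusted p = 0.42), and its sign turned without the AZD5582 or the t0 library of culture 91 (0.0039 and 0.0079). In the list of 13 tested IAP genes and antagonists, 3 rose (23.1%, against 19.9% of all genes) and 5 fell (38.5%, against 24%), with rises of Birc2, Birc3 and the mitochondrial IAP antagonist gene Htra2 (1.65 ± 0.25) and a fall of Xaf1, an interferon-induced XIAP-associated factor (-2.45 ± 0.24). Leaving out any 1 library other than the t0 library of culture 94 lowered the falls to between 1 and 3. Of 36 cell death genes 14 rose (38.9%, against 19.9% of all genes) and 6 fell (16.7%, against 24%), and 6 and 8 rose without the AZD5582 or the t0 library of culture 95. They included the gene of the survival protein Bcl-xL, Bcl2l1, with 435, 366 and 474 CPM with AZD5582, 107, 100.7 and 112 with DMSO and 114, 136 and 146 at t0 (1.69 ± 0.14, adjusted p = 0.000992). Its DMSO libraries were all below t0 and its AZD5582 libraries all above. The inflammatory caspase gene Casp4 rose (1.83 ± 0.23), and the p53 gene Trp53 (-1.08 ± 0.13) fell.

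**Figure D4:**
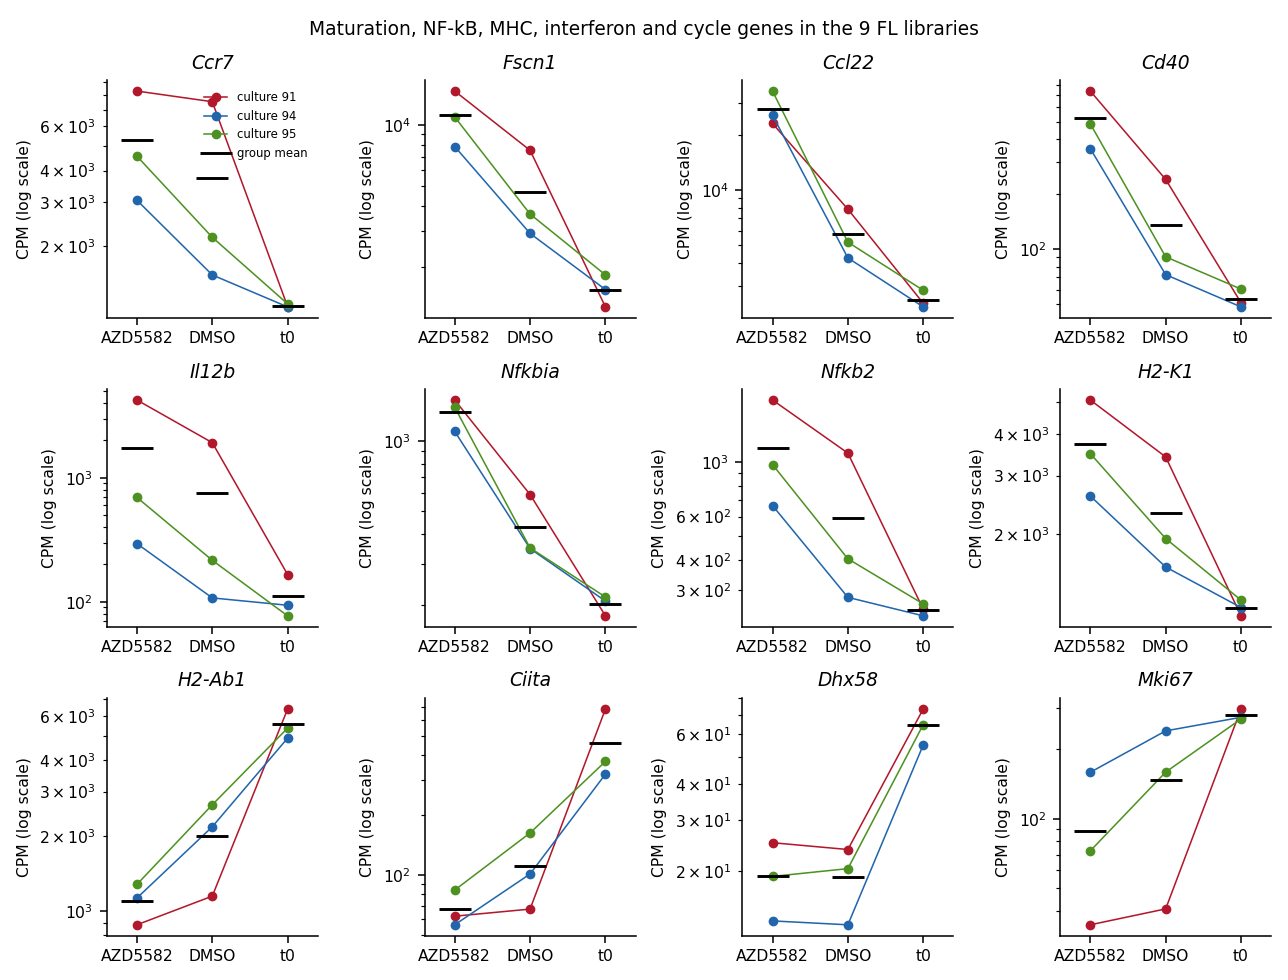
Levels in CPM (log axis) of 12 genes of maturation, NF-kB, MHC, interferon response and cell cycle in the 9 FL libraries, with AZD5582, DMSO and t0 from left to right; points are libraries, lines join libraries of a culture, and bars are group means (n = 3). Cd40 lies between 356 and 737 CPM with AZD5582 and between 48.2 and 60.4 CPM at t0, while H2-Ab1 lies between 882 and 1278 CPM with AZD5582 and between 4899 and 6403 CPM at t0.

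The lists for the 2 arms of antigen presentation differed in direction. Of 23 MHC class I presentation genes, 14 rose and 2 fell (median 1.05), and of 17 MHC class II presentation genes 2 rose and 12 fell (median -1.35), against 19.9% of all genes higher and 24% lower. Between DMSO and t0, 3 class I genes were higher and 3 lower (13.0% each way), and 8 class II genes were lower (47.1%). Of all genes, 9.23% were higher and 10.2% lower in that step. Between AZD5582 and DMSO, 3 class I genes were higher (13.0%, against 3.69% of all genes) and 3 class II genes lower (17.6%, against 3.19%). The class I heavy chain gene H2-K1 had 5080.5, 2603 and 3498 CPM with AZD5582, 3417, 1587 and 1935 with DMSO and 1129, 1197 and 1259.7 at t0 (1.56 ± 0.26, adjusted p = 0.00409). H2-D1 (1.42 ± 0.24), H2-Q4 (2.27 ± 0.29), H2-T22 (1.07 ± 0.17), H2-T23 (1.09 ± 0.18) and the light chain gene B2m (1.60 ± 0.27) rose with it, with the reservation that reads of heavy chain genes can be split among near-identical relatives. The chaperone genes Calr (-0.71 ± 0.16) and Pdia3 (-0.49 ± 0.14) fell, and both calls were lost without the AZD5582 library of culture 91 (adjusted p = 0.0652 and 0.111) or of culture 95 (0.0760 and 0.111). That of Pdia3 was also lost without the AZD5582 library of culture 94 (0.174), the DMSO library of culture 95 (0.0548) and the t0 library of culture 94 (0.0549) or 95 (0.0899). The class II chain gene H2-Ab1 had 882, 1128 and 1278 CPM with AZD5582, 1148, 2170.2 and 2656 with DMSO and 6403, 4899 and 5372 at t0 (-2.39 ± 0.30, adjusted p = 0.00186). Ciita, the master activator of class II genes, had 62.2, 56.3 and 84.2 CPM with AZD5582, 67.5, 101.4 and 163 with DMSO and 684, 322 and 373 at t0 (-2.78 ± 0.39, adjusted p = 0.00246). In the fit, most of the fall lay between DMSO and t0, with -1.56 ± 0.30 for H2-Ab1 and -2.08 ± 0.38 for Ciita. For H2-Ab1 the cultures were uneven. Between DMSO and t0 it changed by -2.48, -1.17 and -1.02 in cultures 91, 94 and 95, beside net changes of -2.86, -2.12 and -2.07. The peptide-loading gene H2-DMb1 (-2.86 ± 0.42) and the invariant chain protease gene Ctsl (-1.39 ± 0.17) fell, and the lysosomal genes Lgmn (2.00 ± 0.35) and Ifi30 (0.99 ± 0.20) rose. The wider list of cross-presentation and antigen uptake gave 9 rises and 12 falls among 38 genes (23.7% and 31.6%, against 19.9% and 24% of all genes; median -0.21), with 4 and 5 rises without the AZD5582 or the t0 library of culture 95 and 20 falls with total-count scaling. It shares Cd207, Clec9a, Tlr3, Cd36, Wdfy4 and Ly75 with the cDC1 genes. It also held Mertk, a receptor for dying cells, at 26.4, 30.4 and 38 CPM with AZD5582, 8.04, 9.96 and 12.1 with DMSO and 6.75, 6.09 and 5.64 at t0 (2.33 ± 0.20, adjusted p = 0.000992).

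Most listed Toll-like receptor and interferon response genes were lower with AZD5582 than at t0. Of 18 Toll-like receptor genes and their partners, 11 fell and 1, the co-receptor gene Ly96 (1.18 ± 0.20), rose, and of 37 type I interferon response genes 25 fell and 2 rose (median -1.64). These are 61.1% and 67.6% lower, against 24% of all genes. Between DMSO and t0, 19 of the 37 interferon genes and 5 of the 18 receptor genes were lower (51.4% and 27.8%, against 10.2% of all genes). Between AZD5582 and DMSO, 3 and 4 were lower (8.11% and 22.2%, against 3.19%). The receptor list shares Tlr3, Tlr11 and Tlr12 with the cDC1 genes. Cd180, a TLR4-related receptor, had 3.79, 4.74 and 5.24 CPM with AZD5582, 7.7, 21.6 and 29.9 with DMSO and 210.2, 112 and 125 at t0 (-5.08 ± 0.54, adjusted p = 0.00139). The adaptor gene Myd88 (-1.95 ± 0.23) and Unc93b1 (-1.47 ± 0.19), which carries receptors to the endosome, fell as well. Among interferon genes, Dhx58, a sensor of viral RNA, had 25, 13.4 and 19.1 CPM with AZD5582, 23.7, 12.9 and 20.3 with DMSO and 73.4, 55 and 64.7 at t0 (-1.79 ± 0.14, adjusted p = 0.00087). AZD5582 and DMSO libraries differed by less than the error (0.01 ± 0.14), and both were below every t0 library. Ifi27l2a (-2.10 ± 0.22) and the antiviral GTPase gene Mx1 (-1.40 ± 0.15) fell, and Isg15 (1.36 ± 0.39) and Ifi209 (1.17 ± 0.27) rose. The calls of Isg15 and Ifi209 were lost without the AZD5582 library of culture 95 (adjusted p = 0.114 and 0.0669) and without its t0 library (0.0681 and 0.0559), and that of Isg15 without the AZD5582 library of culture 94 (0.0690).

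Most listed genes of proliferation, cholesterol synthesis and glycolysis were lower too, against 24% of all genes. Of 45 cell cycle genes, 39 fell and 1, the inhibitor gene Cdkn1b (0.87 ± 0.18), rose (median -2.16), and 19 fell without the AZD5582 library of culture 95 and 22 without the culture term. Between DMSO and t0, 18 cell cycle genes were lower (40%, against 10.2% of all genes), and between AZD5582 and DMSO 1 (2.22%, against 3.19%). Ccnd1, the cyclin of early G1, had 72.5, 72 and 106 CPM with AZD5582, 41.7, 88.4 and 122 with DMSO and 627, 373 and 445 at t0 (-2.58 ± 0.38, adjusted p = 0.00281). The proliferation marker Mki67 had 34.8, 159 and 72.7 CPM with AZD5582, 40.8, 239.8 and 159 with DMSO and 298, 274 and 270.1 at t0 (-2.05 ± 0.51, adjusted p = 0.0169), and the spread after 24 h was far wider than at t0. The call of Mki67 was lost without the AZD5582 library of culture 91 (0.0834) or 95 (0.0785) and without the culture term (0.0839), and that of Cdkn1b without the t0 library of culture 95 (0.0509). All 15 called genes of 23 in cholesterol synthesis fell (median -0.87), among them Insig1, a regulator of the pathway, with 50.4, 49.97 and 36.4 CPM with AZD5582, 50.2, 47.6 and 40.6 with DMSO and 179, 162 and 129 at t0 (-1.78 ± 0.11, adjusted p = 0.00039). For this gene the AZD5582 and DMSO libraries overlapped and lay below every t0 library. Between DMSO and t0, 15 of the 23 cholesterol synthesis genes were lower (65.2%, against 10.2% of all genes), with a median of -0.99. Between AZD5582 and DMSO 0 of them were called, with a median of 0.18. Of 27 glycolysis and hypoxia genes 17 fell and 2 rose (median -0.90), with falls of the glucose transporter gene Slc2a1 (-1.57 ± 0.19) and of Pkm (-1.37 ± 0.18) and a rise of the phosphofructokinase regulator Pfkfb3 (2.30 ± 0.43).

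**Figure D5:**
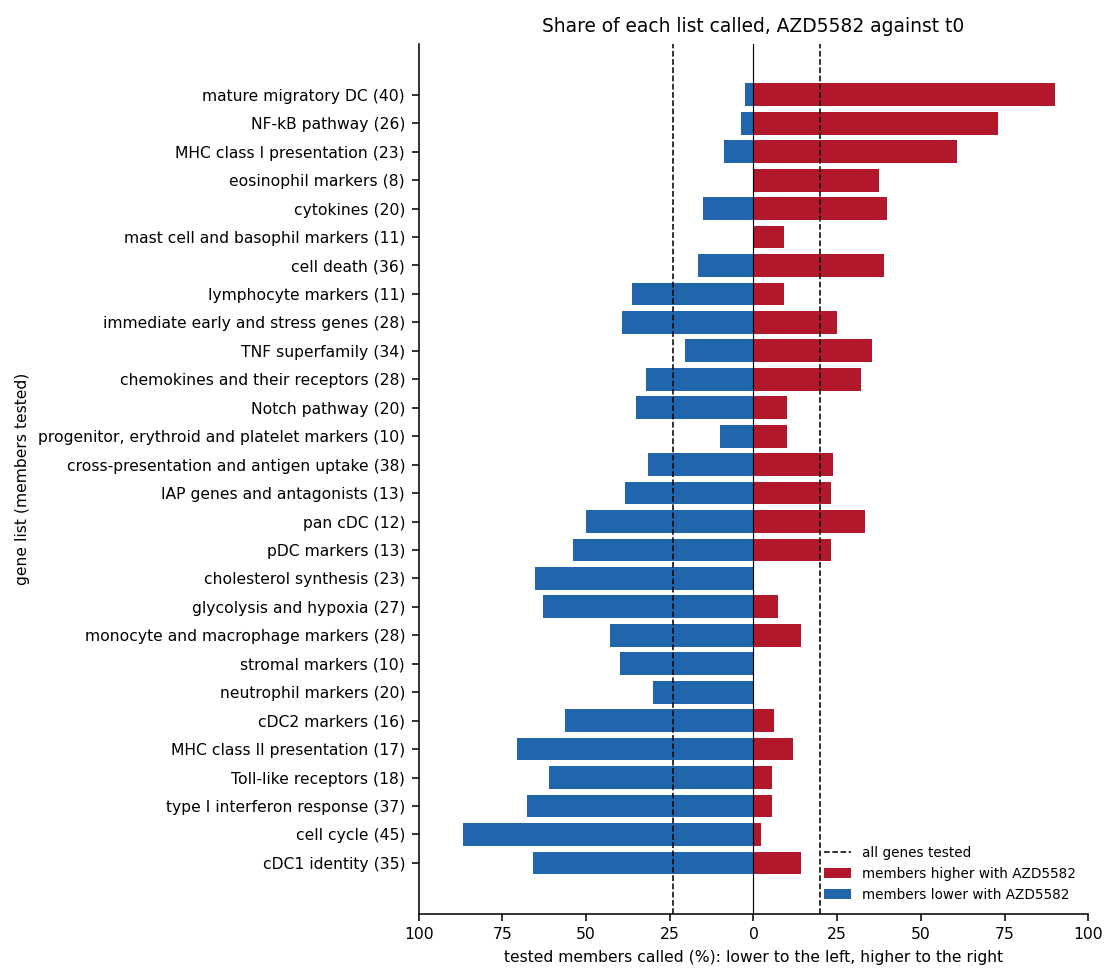
Share of the tested members of 28 gene lists called higher (right) or lower (left) in the net change, ordered by the lists' median log2 change, with dashed lines at the shares over all genes tested (19.9% higher, 24% lower). Mature migratory DC genes lie at the top (90% higher), and cell cycle (86.7% lower) and cDC1 identity genes (65.7% lower) at the bottom.

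Markers of other cells that such cultures can hold were read in the same way. Of 12 genes shared by conventional DCs, 4 rose and 6 fell (33.3% and 50%, against 19.9% and 24% of all genes), and 2 rose without the AZD5582 or the t0 library of culture 95. Flt3, the receptor of FLT3L, had 686, 321 and 462 CPM with AZD5582, 681, 208 and 311 with DMSO and 316, 176 and 205 at t0 (1.05 ± 0.19, adjusted p = 0.00534; 0.108 without the culture term), and the DC factor gene Zbtb46 changed by 0.77 ± 0.18 (adjusted p = 0.0124; lost without the AZD5582 library of culture 95, 0.0669, its t0 library, 0.0586, or the culture term, 0.0986). Itgax, which encodes the DC integrin CD11c, had 25.1, 39.7 and 42.4 CPM with AZD5582, 37.8, 126 and 161 with DMSO and 476, 325 and 391 at t0 (-3.58 ± 0.47, adjusted p = 0.00219). The lineage factor gene Spi1 fell with it (-1.25 ± 0.16). Type 2 conventional DC (cDC2) markers fell for 9 of 16 (56.3%) and rose for 1, with summed levels of 413.8 to 887 CPM with AZD5582 and 1156 to 1291 CPM at t0. The lectin gene Mgl2 had 0.103, 3.01 and 1.51 CPM with AZD5582, 4.18, 83.8 and 84.6 with DMSO and 164, 207 and 208 at t0 (-7.85 ± 1.09, adjusted p = 0.00253), the factor Klf4 fell (-2.14 ± 0.22) and the adhesion gene Esam rose (2.69 ± 0.26). The part of cDC2 RNA in these results was not tested.

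Plasmacytoid DC markers fell for 7 of 13 (53.8%, against 24% of all genes) and rose for 3 (23.1%, against 19.9%), with the factor genes Tcf4 (1.42 ± 0.13) and Runx2 (2.11 ± 0.27) higher and Irf7 (-3.02 ± 0.42) lower, and 3 or 4 fell without the AZD5582 library of culture 91 or 95. Monocyte and macrophage markers fell for 12 of 28 (42.9%) and rose for 4 (14.3%; 2 without the AZD5582 or the t0 library of culture 95), and their summed level was 731 to 1775 CPM with AZD5582 and 2057 to 2519 CPM at t0. The growth factor receptor gene Csf1r had 15.9, 34.2 and 33.8 CPM with AZD5582, 58.3, 153 and 216 with DMSO and 137, 161 and 178 at t0 (-2.61 ± 0.28, adjusted p = 0.00136), and the complement gene C1qb fell by 2.26 on the log2 scale. Lyz2, the myeloid lysozyme, had 278, 624 and 505 CPM with AZD5582, 824, 950.3 and 1186 with DMSO and 678, 507 and 689.9 at t0 and was not called (-0.47 ± 0.28, adjusted p = 0.213). Neutrophil markers fell for 6 of 20 (30%, close to the 24% of all genes) and rose for 0. None fell without the AZD5582 library of culture 91 or 95 or the culture term, 2 without the DMSO library of culture 91, 1 without the t0 library of culture 95, 16 without the AZD5582 and 11 without the t0 library of culture 94. The 2 steps of the neutrophil list ran in opposite directions. Between DMSO and t0, 2 of the 20 were higher (10%, against 9.23% of all genes) and 0 lower, with a median of 0.91. Between AZD5582 and DMSO, 12 were lower (60%, against 3.19%) and 0 higher, with a median of -2.35. The list had summed levels of 229 to 4308 CPM with AZD5582, 2423 to 11346 CPM with DMSO and 1473 to 4858 CPM at t0. The alarmin gene S100a9 had 58, 1218 and 112 CPM with AZD5582, 581, 3419 and 1264 with DMSO and 331, 1405 and 698 at t0 (-1.72 ± 0.50, adjusted p = 0.0294). Culture 94 held the most of it in all 3 groups, the groups overlapped, and its call was lost without the AZD5582 library of culture 91 (0.122) or 95 (0.129), the DMSO library of culture 91 (0.0595) the t0 library of culture 95 (0.0955) or the culture term (0.611).

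Eosinophil markers rose for 3 of 8, mast cell and basophil markers for 1 of 11, and none of either fell (37.5% and 9.09% higher, against 19.9% of all genes). Without the t0 library of culture 91 the counts were 6 and 9, and eosinophil markers rose for 1 without any 1 library of culture 94 or 95. Without the AZD5582 library of culture 91, 3 mast cell and basophil markers rose. Prg2, the eosinophil major basic protein gene, had 176, 2344 and 938 CPM with AZD5582, 232, 2185 and 1004 with DMSO and 179.8, 701 and 388 at t0 (0.97 ± 0.33, adjusted p = 0.046), a call lost without the AZD5582 or the t0 library of culture 94 or 95, or without their DMSO libraries, with adjusted p between 0.0706 and 0.185, and without the culture term (0.292). Culture 91 had the least Prg2 in all groups. Eosinophil markers summed to 207 to 2635 CPM with AZD5582 and 243 to 882 CPM at t0, and mast cell and basophil markers to 139 to 1921 CPM with AZD5582 and 209.8 to 963 CPM at t0. Lymphocyte markers (4 of 11 lower, 1 higher, median 0.15) summed to at most 12.2 CPM with AZD5582 and 20.6 CPM at t0. Stromal markers (4 of 10 lower) summed to at most 54.6 CPM with AZD5582 and 82.0 CPM at t0. Progenitor, erythroid and platelet markers (1 of 10 lower, 1 higher) summed to at most 254 CPM with AZD5582 and 171 CPM at t0. The lower shares of the 3 lists were 36.4%, 40% and 10%, against 24% of all genes. Their higher shares were 9.09%, 0% and 10%, against 19.9%. Without the AZD5582 or the t0 library of culture 91 or 95, 2 lymphocyte markers fell, and without the AZD5582 library of culture 91, 94 or 95, 1, 2 and 0 stromal markers (2 without the DMSO library of culture 94 or the t0 library of culture 95). The lower progenitor call was lost without any 1 AZD5582 library, the t0 library of culture 95, the filter or the culture term, and the higher call without the AZD5582 or the t0 library of culture 95 (2 were higher without the t0 library of culture 91). These last 3 lists held little RNA at either time, and transcripts of granulocytes were present in every library.

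Over all genes, the 12 largest rises by the rule used here were mostly of genes almost silent at t0. Gli1, the transcription factor of hedgehog signalling, had 49.3, 14.1 and 19 CPM with AZD5582, 1.67, 0.229 and 0.236 with DMSO and 0.0971, 0.115 and 0.0818 at t0 (7.96 ± 0.57, adjusted p = 0.000638). Dll4, a Notch ligand, had 29.5, 17.8 and 45.8 CPM with AZD5582, 0.975, 0.328 and 1.23 with DMSO and 0.178, 0.443 and 0.286 at t0 (6.52 ± 0.55, adjusted p = 0.000986). Plat, tissue plasminogen activator, had 124, 26.2 and 48.6 CPM with AZD5582, 14.8, 1.44 and 1.29 with DMSO and 0.307, 0.263 and 0.47 at t0 (7.26 ± 0.78, adjusted p = 0.0014). All 3 were below 1 CPM in every t0 library and at least at 14.1 CPM with AZD5582, and culture 91 with DMSO was above the other DMSO libraries for Gli1 and Plat. The trophoblast factor gene Gcm1 (7.39 ± 0.32), the sialyltransferase gene St6galnac2 (7.14 ± 0.66), the bile acid-binding protein gene Fabp6 (6.86 ± 0.71), Scube3 (6.00 ± 0.62), the connexin gene Gjb2 (5.63 ± 0.64) and Elobl (7.26 ± 0.63) followed. Trim43b had the largest value (9.09 ± 0.56), and its near-identical relatives make it uncertain. Ptgs2, the inducible cyclooxygenase, had 331, 64.2 and 160.4 CPM with AZD5582, 40.8, 4.16 and 5.06 with DMSO and 1.47, 3.12 and 0.307 at t0 (6.65 ± 1.12, adjusted p = 0.00448; 0.0883 without culture 91). Hpgd, the enzyme that inactivates prostaglandins, held 2 counts in all with AZD5582 and 3865 at t0, a level lower by a factor of 1763 (95% counting interval 488 to 14566).

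Cd209e held 2 counts with AZD5582 and 5664 at t0, lower by a factor of 2584 (95% counting interval 715 to 21343). Cd209a, the closest mouse relative of DC-SIGN, had 0.0588, 0.853 and 0.503 CPM with AZD5582, 2.02, 27 and 44.6 with DMSO and 187, 65.3 and 108 at t0 (-8.49 ± 1.39, adjusted p = 0.00412). Cd209c (-7.85 ± 1.53) and the galactose lectin gene Asgr2 (-7.74 ± 0.88) fell likewise, and the Cd209 genes are near relatives whose reads can be confused. In each of Cd209a, Cd209c, Cd209e and Asgr2 the DMSO library of culture 91 was under 5 CPM, far below the DMSO libraries of cultures 94 and 95. Hemgn, a nuclear protein gene of blood progenitors, had 0.0147, 0.0427 and 0.239 CPM with AZD5582, 0, 0.492 and 0.42 with DMSO and 27.1, 18.2 and 22.9 at t0 (-8.14 ± 0.97, adjusted p = 0.00175), so that most of its fall lay between DMSO and t0. Cyp2s1 (-9.21 ± 1.13), a cytochrome P450 gene, the apolipoprotein gene Apof (-7.44 ± 1.31) and the immediate early factor gene Egr3 (-7.28 ± 1.37) were also among the largest falls, as were Mgl2 and Tlr3.

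Among 28 immediate early and stress genes, 7 rose (25%, against 19.9% of all genes) and 11 fell (39.3%, against 24%), although the median was above 0 (0.10). Fosb, an AP-1 subunit, had 1.51, 1.05 and 1.13 CPM with AZD5582, 5.19, 4.82 and 5.61 with DMSO and 83.8, 38.6 and 14.5 at t0 (-5.03 ± 0.53, adjusted p = 0.00135). The heat shock protein gene Hspa1b had 54.6, 26.9 and 58.2 CPM with AZD5582, 2.54, 2.29 and 2.75 with DMSO and 0.777, 0.87 and 1.12 at t0 (5.60 ± 0.28, adjusted p = 0.000364), and its near copy Hspa1a changed by 4.49 ± 0.40. Most of the rise of Hspa1b lay between AZD5582 and DMSO (4.15 ± 0.27). Gadd45b, a stress gene and NF-kB target, rose (2.37 ± 0.32). Of 20 Notch pathway genes 2 rose (10%, against 19.9% of all genes) and 7 fell (35%, against 24%). Besides Dll4, the ligand gene Jag1 rose, with 776, 252 and 421 CPM with AZD5582, 151, 29.96 and 40.04 with DMSO and 39.6, 26.9 and 29.96 at t0 (3.73 ± 0.36, adjusted p = 0.00118). The ligand gene Dll1 (-3.24 ± 0.33) and the Notch effector gene Rbpj (-1.94 ± 0.25) fell.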

How the data were processed

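RNA with an integrity number above 8 was made into TruSeq Stranded mRNA libraries, per the labels' protocols. The submitters' processing notes name STAR 2.7.3a, HTSeq 0.12.4, DESeq2 1.30.1 and the build GRCm39. How strand was set in counting and which annotation release was used is not known from these notes, so overlapping and antisense genes are uncertain. The authors deposited a raw count for each gene and library, without normalisation, and these counts were used. Lines that name no gene took 12.6% to 15.8% of counts in the FL libraries and stayed out of library sizes and tests. Symbols were matched by Ensembl identifier in a GRCm38 annotation, which named 52081 of 55414 gene lines.

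The 9 FL libraries were scaled by TMM, filtered with filterByExpr and fitted with edgeR 4.0.16 in R 4.3.3, with group and culture as terms and robust quasi-likelihood tests. Every adjusted p is from this edgeR test after Benjamini-Hochberg adjustment over 15961 genes. The biological coefficient of variation was 0.284, on 4 residual degrees of freedom. CPM is on TMM library sizes, and the SE is the log2 change divided by the square root of the test's F. The fit was also run on simulated data with less spread, fewer changed genes and the same change in every culture. This checks the code and not how the fit performs at the spread of these data.

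Culture numbers come from the titles, and the culture was a block because the comparison was set up that way. Libraries of the same culture deviated together from their group means (r of 0.135 to 0.689 over the 9 pairs). The pairs of culture 95 were the weakest (0.135 to 0.194). AZD5582 of culture 94 and DMSO of culture 95, from different cultures, gave 0.338. Members and lists were chosen with earlier results of these data known, and the lists are not independent evidence. Named genes were all cDC1 members, a fixed panel, up to 12 called protein-coding genes each way by log2 change that averaged at least 10 CPM on either side, with 1 direction in all cultures, and the called members of each other list with the smallest p. Alternatives were DESeq2 1.42.0, other scalings, no filter, no culture term, 2 groups only, and each library or culture left out. A few of these genes are left out of the text. Total-count scaling and DESeq2 without culture 95 were added after seeing the data. Intervals of count ratios cover counting error only.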

Additional observations from a re-analysis of the deposited data

How the results depend on the processing

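The net change depended most on culture 95. Leaving out libraries or cultures gave 0 to 7612 called genes (0 to 3716 higher, 0 to 3896 lower), 0 to 3640 between DMSO and t0, and 0 to 3958 between AZD5582 and DMSO, with 0 to 30 cDC1 genes called (0 to 6 higher, 0 to 25 lower). DESeq2 without culture 95, a setting chosen after seeing the data, called 4060 genes in the net change (1777 higher, 2283 lower), 2054 between DMSO and t0, 442 between AZD5582 and DMSO, and 3 cDC1 genes higher. Where edgeR called no gene, 5419 (net change), 3578 (DMSO against t0) and 1485 genes (AZD5582 against DMSO) were at an unadjusted p under 0.05 without culture 95, and 5072 (DMSO against t0) without culture 94. Fitting only the compared groups gave 0 genes between DMSO and t0 and 3000 between AZD5582 and DMSO, and DESeq2 on all libraries 4814 and 2404. Without the replicate block for culture, the counts were 5111 in the net change, 1619 between DMSO and t0 and 463 between AZD5582 and DMSO, and 24 cDC1 genes were called.

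Of 3420 values of named genes under alternatives, 3050 kept direction and call, 341 lost the call, 14 gained it and 15 changed sign, in 5 genes that were not called. With libraries or cultures left out, Fndc7 ran from -0.57 to 0.033, Id2 from -0.017 to 0.22, Map3k14 from -0.47 to 0.20 and Xiap from -0.36 to 0.075. Total-count scaling gave -0.21 for Id2 and -0.073 for Tap1, and Map3k14 was at 0.026 without the replicate block and at 0.0079 with DESeq2 without culture 95. The cause of these changes was not tested. Of the 170 named genes called, all kept their direction without culture 95, and DESeq2 called 155 of them without it. They had been called with these same libraries, so a kept direction is not an independent check. Each group holds 3 cultures, which limits the precision of every value here.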
